A study of Mus musculus with 12 samples.

Results

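The genes described here make cholesterol and fatty acids, control that synthesis or move sterols. They were chosen by name as a list of 36 genes: 7 enzymes of the mevalonate arm, 11 of the squalene and sterol arm, 5 genes of the SREBP control system, 9 genes of fatty acid synthesis and desaturation, and 4 of sterol transport and efflux. All 36 had a row among the 41444 rows of the deposited table, and 34 had a mean of at least 3 on the regularized log2 (rlog) scale across the 6 samples used, as did 11536 genes in all. *Tm7sf2*, a sterol reductase, had rlog values of 2.49 to 2.85 and *Abca1*, a cholesterol exporter, of -0.53 to -0.48, so that both fell below this limit and were not tested. The other 34 had means from 7.91 for *Insig2* to 13.51 for *Scd2*.

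The study asked how LY2090314, a small-molecule inhibitor of the kinase GSK3, acts on mouse B cell acute lymphoblastic leukemia (B-ALL) cells with and without β-catenin. RNA-seq was performed on bone marrow pre-B cells of *Ctnnb1* fl/fl mice, grown ex vivo with IL-7 and then transformed with a *BCR-ABL1* retrovirus. Both groups compared here carried the ERT2 vector without Cre, so that the floxed β-catenin alleles were not excised, and both received 4-OHT at 1 µM for 2 days. The 3 control samples received nothing further and the 3 treated samples also received LY2090314 at 40 nM for 1 day per the labels (the study's text gives a shorter exposure), whereas the Cre-ERT2 samples, in which β-catenin is deleted, are not analysed here.

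Cells build cholesterol from acetyl-CoA by way of mevalonate, farnesyl diphosphate, squalene and lanosterol, and build fatty acids from the same precursor through malonyl-CoA. The genes of both routes are transcribed under SREBP factors, which the escort protein SCAP carries from the endoplasmic reticulum to the Golgi when sterols are scarce and which INSIG proteins hold back when sterols are plentiful. In the nucleus, SREBP proteins are marked by GSK3 phosphorylation for degradation through the ubiquitin ligase FBXW7, and in proliferating B-lineage cells the pathway supplies membrane lipid and isoprenoid groups.

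More of these genes fell than rose with LY2090314. Of the 34 tested, 18 (52.9%) were lower at an adjusted p under 0.05 by limma, against 25.3% of all genes tested, and 5 (14.7%) were higher, against 24.8% of all genes. Of the remaining 11, which did not pass the test, 7 had a negative and 4 a positive difference. The median difference of the 34 genes was -0.26 on the log2 scale, that of all 11536 genes was 0.01, and the middle of the distribution of all genes, between its quartiles, ran from -0.23 to 0.25. Control and treated samples did not overlap in 27 of the 34 genes (79.4%), against 58.6% of all genes, and for each of these the exact two-sided permutation test gave 0.1, the smallest p that 3 against 3 samples allow. The sizes were small for most: 4 genes differed by at least 0.5 (*Acaca*, *Elovl6*, *Fdps* and *Lss*) and *Acaca* was the only one that differed by at least 1. In bulk samples, fewer cells of a type and less RNA per cell cannot be told apart.

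**Figure D1:**
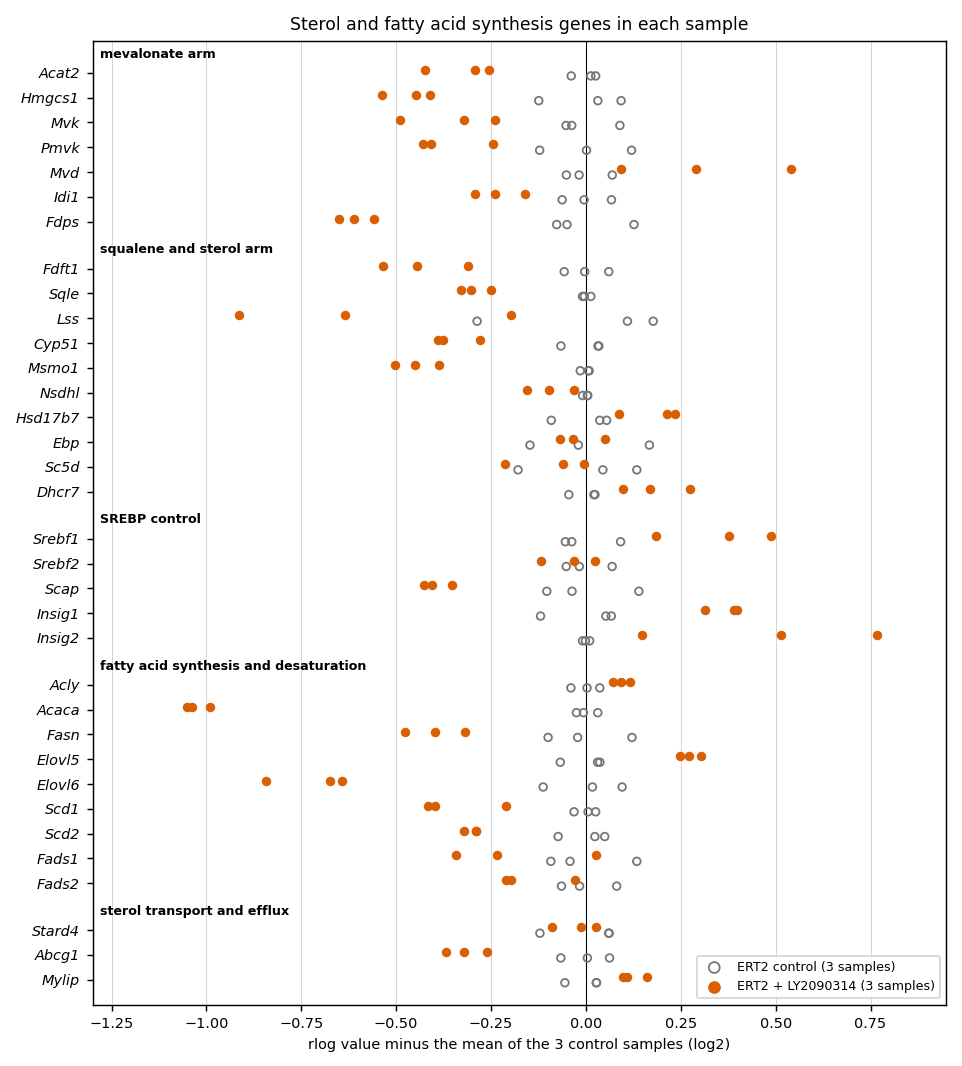
Each point is 1 sample's rlog value minus the mean of the 3 control samples (x axis, log2) for each of the 34 genes tested (y axis, grouped by role), with open grey points for control and filled orange points for LY2090314. *Acaca* stands furthest to the left with all 3 treated samples about 1 below control, most genes of the mevalonate arm lie to the left of control, and *Srebf1*, *Insig1* and *Insig2* lie to the right.

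The samples separated by treatment across the whole table. Across the 11536 genes the SD of the difference between 2 samples was 0.185 to 0.253 within a group and 0.581 to 0.622 between groups. A pair of treated columns carries the same library number and differed by 0.186. All 10 pre-B cell markers were tested. With LY2090314, 8 were lower (80%, against 25.3% of all genes) and none was higher (against 24.8%). The level summed over all 10 (2 to the power of rlog) was 83919 to 85517 in control and 56109 to 62056 in treated samples. Of the other markers listed, 0 of 6 for T cells, 0 of 5 erythroid and 0 of 5 stromal markers reached the limit on the mean, whereas 1 of 5 macrophage and 2 of 8 myeloid markers did. The summed level of the 8 myeloid markers was 68.7 to 77.9 in control and 170 to 177 in treated samples, with *Ly6g* and *Lyz2* higher and the granule genes *Mpo* and *Elane* at 0 throughout. The part of these shifts in the differences of the lipid genes was not tested.

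**Figure D2:**
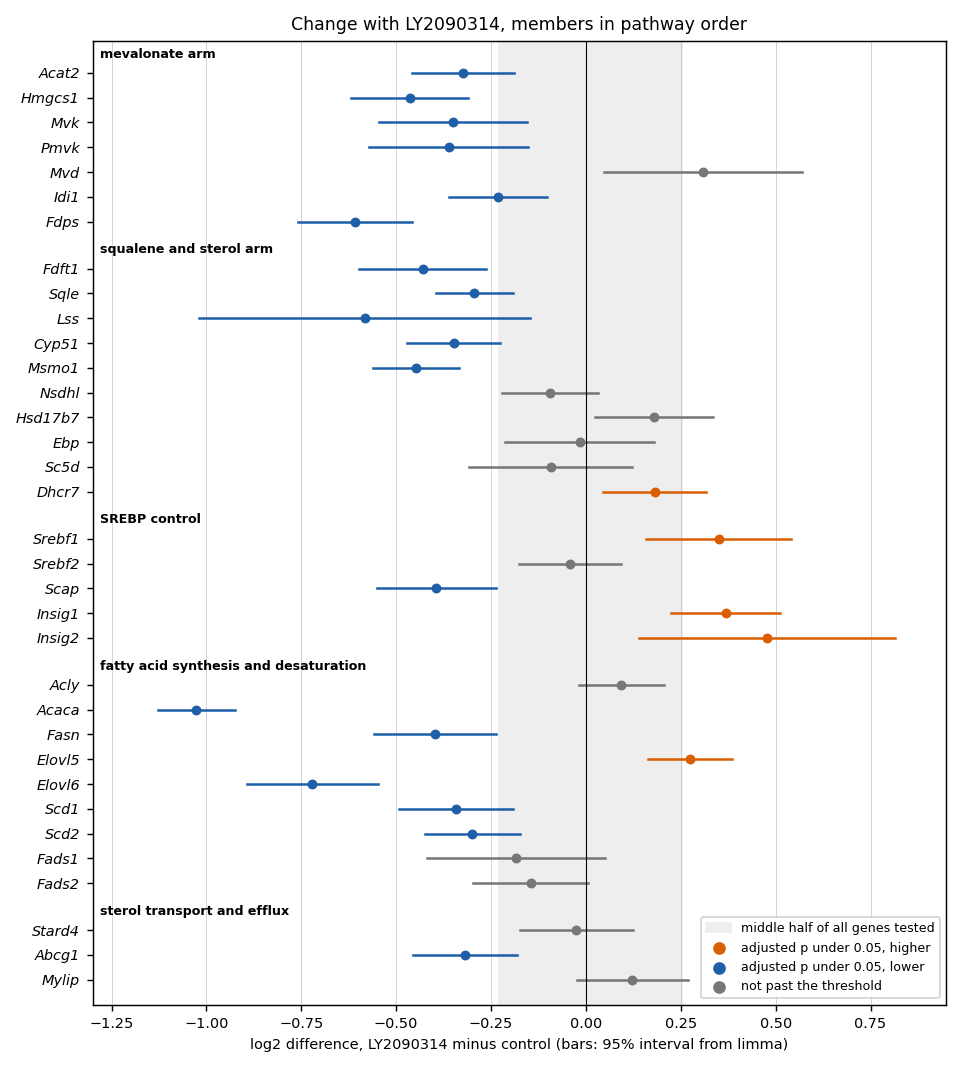
Points give the difference of the group means, LY2090314 minus control (x axis, log2), and bars its 95% interval from limma for the 34 genes in pathway order (y axis), coloured by call, with the grey band from -0.23 to 0.25 between the quartiles of all genes tested. The 18 genes called lower are blue and the 5 called higher are orange, and *Lss* and *Insig2* have the widest intervals.

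The promoters of these genes are shown because the genes share a known regulator and because members of both directions were found. RefSeq windows of GRCm38.p6, from 250 bases before to 50 bases after a transcription start, were given for 28 of the 36 genes in 36 windows. *Abcg1*, *Fads1*, *Fdft1*, *Fdps*, *Scd1*, *Scd2*, *Sqle* and *Stard4* were without an entry. The windows were searched on both strands for a sterol regulatory element (TCACNCCAC), the CCAAT box (CCAAT), at which the SREBP partner NF-Y binds, a GC box (GGGCGG), an E-box (CACGTG) and a TCF/LEF core (CTTTGA). The 250 bases before the start are printed here for 2 genes that fell, *Hmgcs1* and *Fasn*, and 2 that rose, *Srebf1* and *Insig2*, each 5′ to 3′ on the strand of the gene, with every sterol regulatory element and CCAAT box in capitals.
Hmgcs1, chr13:119690101-119690350, plus strand: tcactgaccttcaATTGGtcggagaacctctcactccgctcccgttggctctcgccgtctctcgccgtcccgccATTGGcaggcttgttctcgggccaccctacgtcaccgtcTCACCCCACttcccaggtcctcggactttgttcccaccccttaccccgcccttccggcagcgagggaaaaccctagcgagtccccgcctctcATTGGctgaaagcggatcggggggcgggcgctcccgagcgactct
Fasn, chr11:120824548-120824797, minus strand: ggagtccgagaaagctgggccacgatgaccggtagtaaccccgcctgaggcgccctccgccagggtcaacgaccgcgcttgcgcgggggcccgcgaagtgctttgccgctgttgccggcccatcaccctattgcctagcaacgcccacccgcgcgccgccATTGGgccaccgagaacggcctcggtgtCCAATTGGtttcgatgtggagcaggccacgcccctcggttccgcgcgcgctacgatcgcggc
Srebf1, chr11:60222582-60222831, minus strand: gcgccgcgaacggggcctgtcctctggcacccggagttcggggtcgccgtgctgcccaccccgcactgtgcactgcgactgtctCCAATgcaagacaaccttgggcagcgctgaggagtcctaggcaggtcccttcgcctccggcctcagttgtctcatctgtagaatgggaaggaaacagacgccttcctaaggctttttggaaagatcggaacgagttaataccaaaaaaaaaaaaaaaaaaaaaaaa
Insig2, chr1:121332590-121332839, minus strand: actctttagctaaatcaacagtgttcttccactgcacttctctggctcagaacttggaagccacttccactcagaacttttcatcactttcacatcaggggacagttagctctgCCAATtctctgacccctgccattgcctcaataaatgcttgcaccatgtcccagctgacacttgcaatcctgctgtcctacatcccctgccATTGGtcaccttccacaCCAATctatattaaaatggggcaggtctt

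*Hmgcs1* carried the sterol regulatory element beginning 137 bases before its start and 3 CCAAT boxes, 237, 176 and 45 bases before it. *Fasn* carried 3 CCAAT boxes, of which the pair at 62 and 59 bases overlap on opposite strands, the only overlap between any of the motifs searched in the 36 windows. The windows printed for *Srebf1*, with 1 CCAAT box, and *Insig2*, with 3, belong to the outermost of 3 RefSeq starts listed for each.

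Across the 28 genes, *Hmgcs1* was the only one with the sterol regulatory element as spelled here, 3.57% against 1.44% of the 27025 genes with a window. A CCAAT box was found in 22 of the 28 (78.6%) against 41.1% of all genes, a GC box in 23 (82.1%) against 38.2%, an E-box in 7 (25%) against 8.09%, and the TCF/LEF core in 3 (10.7%) against 18.2%. The CCAAT box stood in windows of genes of every outcome: 8 of the 12 lower genes with a window, 5 of the 5 higher and 8 of the 9 that did not pass the test. These matches describe letters in the window, and no binding was measured. The 27025 genes compared were not limited to genes tested, whereas all but 2 of the 28 were tested.

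In the mevalonate arm, which turns acetyl-CoA into farnesyl diphosphate, 6 of 7 genes were lower (85.7%, against 25.3% of all genes). None was higher, against 24.8% of all genes, and the median difference was -0.35. The largest fall was that of *Fdps* (ENSMUSG00000059743), the farnesyl diphosphate synthase. Its rlog values were 10.90, 10.93 and 11.10 in control and 10.36, 10.32 and 10.42 in LY2090314-treated samples. Every treated sample lay below every control sample, and the level was 1.52-fold lower (difference -0.61, standard error 0.065, adjusted p = 0.000155).

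*Hmgcs1* (ENSMUSG00000093930), which condenses acetoacetyl-CoA and acetyl-CoA to HMG-CoA and whose promoter holds the sterol regulatory element, had rlog values of 11.61, 11.55 and 11.39 in control and 11.07, 11.11 and 10.98 in treated samples. The groups did not overlap, and the level was 1.38-fold lower (difference -0.46, standard error 0.067, adjusted p = 0.000782). The steps on either side fell by smaller amounts. *Acat2*, the acetyl-CoA acetyltransferase before it, differed by -0.32, the mevalonate kinase *Mvk* by -0.35, the phosphomevalonate kinase *Pmvk* by -0.36 and the isopentenyl diphosphate isomerase *Idi1* by -0.23, with adjusted p from 0.00238 to 0.0117.

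*Mvd*, the mevalonate diphosphate decarboxylase between *Pmvk* and *Idi1*, was the exception in the arm. Control samples had rlog values of 8.42, 8.38 and 8.50, and treated samples of 8.53, 8.73 and 8.98. All 3 treated samples lay above control, by 0.31 on average (95% interval 0.05 to 0.57), but the adjusted p of 0.052 missed the threshold. It fell under 0.05 when the treated sample nearest to control was left out (difference 0.42, adjusted p = 0.0152), when the treated columns with the same library number were merged (0.37, adjusted p = 0.04), and with a mean of at least 5 required (adjusted p = 0.0472).

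In the squalene and sterol arm, 5 of the 10 genes tested were lower (50%, against 25.3% of all genes). In this arm 1 gene was higher (10%, against 24.8%), and the median difference was -0.19. The 5 lower genes stand at the start of the arm. *Fdft1*, the squalene synthase, differed by -0.43, the squalene epoxidase *Sqle* by -0.29, the lanosterol demethylase *Cyp51* by -0.35 and the C4-methylsterol oxidase *Msmo1* by -0.45, with adjusted p from 0.000185 to 0.00174, and in each of these 4 genes the groups did not overlap. *Sqle* and *Msmo1* were among the most even genes, with SDs of 0.012 and 0.013 in control samples.

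*Lss*, the lanosterol synthase, differed by -0.58 but varied most between samples of all the tested genes of the list. Control samples had rlog values of 9.73, 10.13 and 10.20, and treated samples of 9.82, 9.38 and 9.10. The lowest control sample lay below the highest treated sample, and the adjusted p was 0.0334 (standard error 0.19). The call was lost when any of 4 of the 6 samples was left out: the adjusted p was then 0.0754 to 0.104.

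The later steps from lanosterol derivatives to cholesterol showed no common direction. *Nsdhl*, *Hsd17b7*, *Ebp* and *Sc5d*, which take part in the removal of methyl groups, reduce a ketone, shift a double bond and introduce one, did not pass the test, with differences of -0.09, 0.18, -0.02 and -0.09. *Dhcr7*, the reductase of the last step of the Kandutsch-Russell route, had rlog values of 10.07, 10.13 and 10.14 in control and 10.39, 10.21 and 10.28 in treated samples. It was higher by 0.18 (standard error 0.059, adjusted p = 0.0344) with no overlap. Leaving out any of 4 of the 6 samples moved its adjusted p to between 0.0566 and 0.114, and centring each sample on its median gave 0.0657.

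In the SREBP control system, 3 of 5 genes were higher (60%, against 24.8% of all genes) and 1 was lower (20%, against 25.3%), and the call of 1 of the 3, *Insig2*, was lost in several settings. *Srebf1* encodes SREBP-1, which acts mainly on fatty acid genes. Its rlog values were 10.80, 10.65 and 10.67 in control and 11.19, 11.08 and 10.89 in treated samples. The groups did not overlap, and the level was 1.27-fold higher (difference 0.35, standard error 0.082, adjusted p = 0.00894).

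*Srebf2* encodes SREBP-2, which acts mainly on sterol genes. Its rlog values were 12.82, 12.85 and 12.94 in control and 12.84, 12.75 and 12.90 in treated samples. The groups overlapped, with a difference of -0.04 (95% interval -0.18 to 0.09, adjusted p = 0.577).

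*Scap*, the escort of both SREBPs, was the gene of this group that fell. The control values of 12.23, 12.30 and 12.47 and the treated values of 11.93, 11.91 and 11.98 (rlog) did not overlap. The level was 1.31-fold lower (difference -0.39, standard error 0.068, adjusted p = 0.00193).

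Both INSIG genes, whose products retain SCAP and SREBP in the endoplasmic reticulum, were higher. *Insig1*, itself a known SREBP target, had rlog values of 10.70, 10.69 and 10.52 in control and 11.03, 11.03 and 10.95 in treated samples. It rose by 0.37 (standard error 0.062, adjusted p = 0.00181), a 1.29-fold change, with the groups apart and in the opposite direction from *Hmgcs1*, *Fdps* and *Sqle*.

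*Insig2* had rlog values of 7.66, 7.68 and 7.67 in control and 8.19, 8.44 and 7.82 in treated samples. The control samples were nearly equal, with an SD of 0.009, whereas the treated samples had an SD of 0.31. The difference was 0.48 (standard error 0.15, adjusted p = 0.0266). The call was lost when any sample but the lowest treated one was left out, with adjusted p of 0.0642 to 0.0749, and it reached 0.00138 without that sample (difference 0.64). It was also lost when the treated columns with the same library number were merged (difference 0.39, adjusted p = 0.0673).

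**Figure D3:**
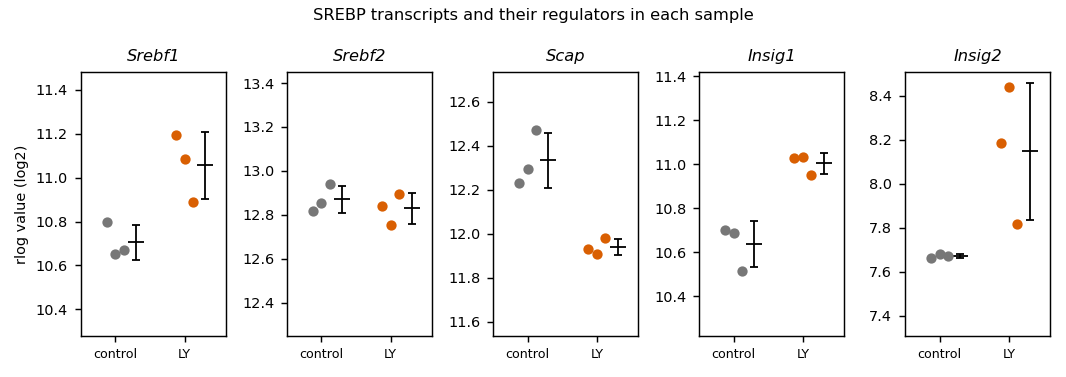
Each panel shows the rlog values (y axis, log2, an equal span in every panel) of 1 gene of the SREBP control system in the 3 control (grey) and the 3 LY2090314-treated samples (orange), with the mean and SD of each group beside the points. *Srebf1*, *Insig1* and *Insig2* are higher and *Scap* is lower in every treated sample than in any control sample, whereas the groups of *Srebf2* overlap.

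Among the 9 genes of fatty acid synthesis and desaturation, 5 were lower (55.6%, against 25.3% of all genes). In this group 1 gene was higher (11.1%, against 24.8%), and the median difference was -0.30. *Acaca* (ENSMUSG00000020532, GRCm38 chr11:84129672-84401651, plus strand), the acetyl-CoA carboxylase that makes malonyl-CoA, showed the largest change of all 34 genes. Its rlog values were 12.68, 12.64 and 12.62 in control and 11.66, 11.61 and 11.60 in treated samples. The SDs were 0.029 and 0.031, the groups did not overlap, and the level was 2.04-fold lower (difference -1.03, standard error 0.044, adjusted p = 1.27e-06).

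*Elovl6*, the elongase of saturated C16 fatty acids, followed with rlog values of 12.62, 12.54 and 12.41 in control and 11.85, 11.88 and 11.68 in treated samples. The groups did not overlap, and the level was 1.65-fold lower (difference -0.72, standard error 0.074, adjusted p = 0.000134). The fatty acid synthase *Fasn* differed by -0.40, and the stearoyl-CoA desaturases *Scd1* and *Scd2* by -0.34 and -0.30, with adjusted p from 0.00217 to 0.00326 and no overlap. *Scd1* and *Scd2* lie on chromosome 19 with 87590 bases between them, a stretch that holds the related gene *Scd4*.

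*Elovl5*, which elongates polyunsaturated fatty acids, was the gene of this group that rose. Its rlog values were 11.33, 11.43 and 11.44 in control and 11.67, 11.65 and 11.71 in treated samples. It was 1.21-fold higher (difference 0.27, standard error 0.048, adjusted p = 0.00216), with no overlap, and differed in sign from the other elongase of the list.

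*Acly*, which cleaves citrate to supply cytosolic acetyl-CoA, did not pass the test, with a difference of 0.09 (95% interval -0.02 to 0.21). The desaturases of polyunsaturated fatty acids *Fads1* and *Fads2*, which lie 81141 bases apart, also did not, with differences of -0.18 and -0.15 and overlapping groups. In both genes the same treated sample lay closest to control. Without it the differences were -0.29 and -0.20, each with an adjusted p of 0.016.

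Of the genes of sterol transport and efflux, 1 of the 3 tested was lower (33.3%, against 25.3% of all genes). None was higher, against 24.8% of all genes. *Abcg1*, an exporter of cholesterol and a target of the oxysterol receptors LXR, had rlog values of 9.72, 9.78 and 9.65 in control and 9.40, 9.35 and 9.46 in treated samples. It was 1.25-fold lower (difference -0.32, standard error 0.059, adjusted p = 0.00293), without overlap.

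*Mylip*, a ubiquitin ligase that limits lipoprotein uptake and another LXR target, had rlog values of 8.55, 8.55 and 8.47 in control and 8.68, 8.63 and 8.62 in treated samples. All 3 treated samples were above control, by 0.12 (95% interval -0.02 to 0.27), and the adjusted p of 0.144 missed the threshold. *Stard4*, a carrier of sterols between membranes, differed by -0.03 with overlapping groups.

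Levels of different genes can be compared only per length, here as 2 to the power of the mean rlog value of the control samples divided by transcript length in kb. With the median transcript length of each gene, *Scap* (11566) and *Scd1* (11554) ranked highest, followed by *Idi1* (6427), *Acaca* (6064) and *Acly* (5215), and *Mylip* (147) ranked lowest. With the longest transcript the first were *Scd2* (2371), *Acly* (2052) and *Scd1* (1793), and the last was *Insig2* (75.6). *Acly*, *Idi1* and *Scd1* were among the highest 5 by both lengths. *Scap* and *Acaca* were among them only with the median length, and *Scd2* and *Srebf2* only with the longest. The order therefore depends in part on the length used.

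Several of these genes share sequence or exons with other genes, and how the counting divided such reads cannot be read from the table. Of the 36, 9 shared at least 5% of their transcripts' 31-base words with all other genes of GENCODE vM21 together. The share with a single gene was highest for *Acat2* (43.75% with *Acat3*, whose mean rlog was 1.20 in control), followed by *Acaca* (31.7% with the pseudogene *Gm5182*), *Fdps* (24.6% with *Gm43738*) and *Idi1* (18.4% with *Gm13502*). *Gm13502* had means of 8.29 and 8.34, a difference of 0.06 with an adjusted p of 0.6, while *Idi1* fell. The exons of 11 genes overlap another gene, among them *Fdft1* with *Ctsb* on the other strand, which was higher by 0.52 (adjusted p = 0.000311) where *Fdft1* was lower.

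Other genes of the same pathways were counted in lists of related genes. Among 10 further genes of sterol and isoprenoid synthesis, 4 were lower (40%, against 25.3% of all genes). None was higher, against 24.8% of all genes, and the median was -0.10. The lower genes included *Aacs* (-0.47), which activates acetoacetate, and *Pdss1* (-0.46) and *Coq2* (-0.22) of coenzyme Q synthesis. These genes, and others below that differed by less than 1, were named after their values were seen.

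Of 12 tested genes of the SREBP and LXR machinery, 4 were higher and 4 were lower (33.3% each, against 24.8% and 25.3% of all genes). *Rxra*, the nuclear receptor that pairs with LXR, had rlog values of 7.81, 7.83 and 7.97 in control and 5.94, 5.56 and 5.86 in treated samples. It was 4.25-fold lower (difference -2.09, standard error 0.12, adjusted p = 5.11e-06). *Rxrb* also fell (-0.34), whereas *Nr1h2*, which encodes LXRβ, rose (0.33), as did *Fbxw7* (0.37).

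Of 17 genes of sterol uptake, storage and trafficking, 8 were higher (47.1%, against 24.8% of all genes) and 5 were lower (29.4%, against 25.3%). *Vldlr*, the receptor of very low density lipoprotein, had rlog values of 4.83, 4.61 and 4.95 in control and 8.97, 8.82 and 8.63 in treated samples. Its level was 16.1-fold higher (difference 4.01, standard error 0.13, adjusted p = 2.78e-07), a change far beyond the spread within either group.

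*Npc1*, which exports cholesterol from lysosomes, had rlog values of 9.56, 9.32 and 9.37 in control and 10.86, 10.79 and 10.83 in treated samples, a 2.66-fold rise (adjusted p = 2.36e-06). *Gramd1a*, which carries cholesterol from the plasma membrane to the endoplasmic reticulum, had values of 8.81, 8.72 and 8.69 in control and 10.02, 10.01 and 9.71 in treated samples, a 2.25-fold rise (adjusted p = 2.89e-05). The lysosomal sterol genes *Lipa* (0.98) and *Npc2* (0.66) rose as well. *Scarb1*, the HDL receptor, fell by 0.87.

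Of 16 tested further genes of fatty acid synthesis and elongation, 4 were higher (25%, against 24.8% of all genes) and 3 were lower, a share below the 25.3% of all genes, with a median of -0.05. *Acss2*, which makes acetyl-CoA from acetate, had rlog values of 5.28, 5.33 and 5.07 in control and 6.51, 6.39 and 6.54 in treated samples. The level was 2.38-fold higher (difference 1.25, adjusted p = 3.73e-05), opposite in sign to *Slc25a1* (-0.78), the mitochondrial citrate carrier that feeds *Acly*, and to the elongase *Elovl1* (-0.62).

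**Figure D4:**
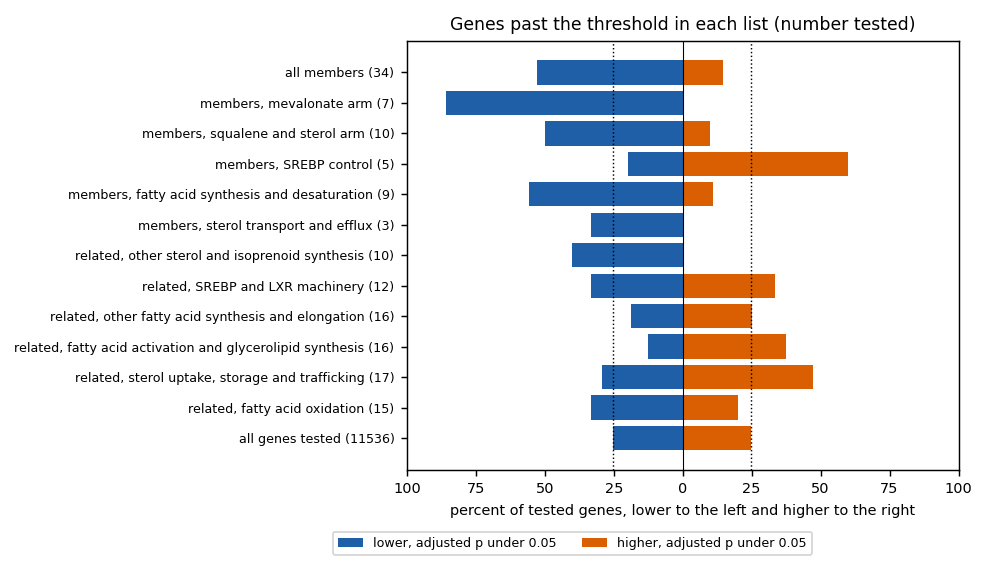
Bars give the percent of tested genes in each list (number tested in brackets) that were lower (blue, to the left) or higher (orange, to the right) at an adjusted p under 0.05, and dotted lines mark the shares over all genes, 25.3% lower and 24.8% higher. The mevalonate arm reaches 85.7% lower with none higher, the SREBP control system 60% higher, and the list of sterol uptake, storage and trafficking 47.1% higher.

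**Figure D5:**
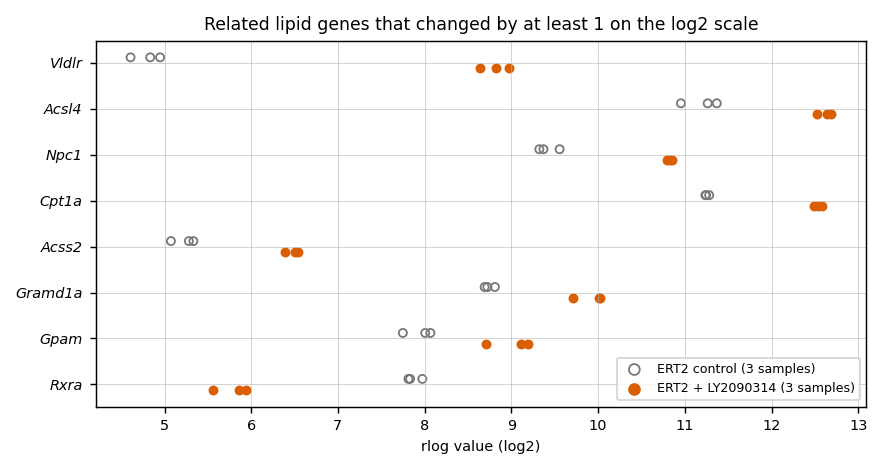
Points give the rlog values (x axis, log2) of the 3 control (open grey) and the 3 LY2090314-treated samples (orange) for the 8 genes of the related lists that passed the test with a difference of at least 1 (y axis). Control and treated samples are apart in all 8, with *Vldlr* 4.01 higher and *Rxra* 2.09 lower.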

How the data were processed

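The authors isolated polyadenylated RNA and sequenced stranded libraries as paired-end reads, checked them with FastQC 0.11.9, SAMtools 1.7 and Picard 2.23.8, used Salmon for quantification, STAR for alignment to GRCm38 (GENCODE vM24) and DESeq2 1.30.1, per the labels and the study's methods. The authors deposited log2 values, named as rlog: counts scaled for library size, with genes of few reads drawn towards their mean, so that differences of low genes are understated. The table has no counts, and the depth of each library is therefore unknown. The options of the transformation are not given in the sources used here.

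Of 12 columns, 6 were matched to a group by name. The other 6 combine Cre and LY in 2 spellings, more columns than the group they name has samples, and were not used. The study describes the samples as separate mice. A pair of treated columns shares a library number and was counted as separate samples.

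The 11536 genes with a mean of at least 3 were tested in limma 3.58.1 (R 4.3.3; lmFit, then eBayes with a mean-variance trend, two-sided), and genes were called at a Benjamini-Hochberg adjusted p under 0.05. A count model had been the study's choice and does not apply to log2 values. On simulated data of 11536 genes with 200 changed, 68% of these were recovered and 3.55% of calls were unchanged genes. Far more genes, 5778, were called in the real data, so that these shares cannot be carried over to the calls given here.

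Symbols and positions came from GENCODE vM21 of GRCm38, an earlier release than that of the authors (41157 of 41444 identifiers matched). Promoter windows came from RefSeq. The genes and lists were chosen with earlier results of these data known. Values per sample are given for each gene of the SREBP control system, for other genes of the list past the threshold with a difference of at least 0.5, for the largest rise and fall of each role group, and for related genes past the threshold with a difference of at least 1 (at most 4 of each related list). *Hmgcs1* was added after its values were seen. Some genes of the related lists are counted but not reported here by name.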

Additional observations from a re-analysis of the deposited data

How the results depend on the processing

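Of the 23 genes called, 20 kept the call in all 12 settings that left the call rule as it was (no mean-variance trend, other limits on the mean, median centring, quantile normalization, leaving out each sample, and merging both columns of the shared library number). *Lss*, *Dhcr7* and *Insig2* lost it in at least 1, and *Mvd*, *Hsd17b7*, *Fads1* and *Fads2* gained one. The count of higher genes, 5, was 3 with no lower limit on the mean, 3 at an adjusted p under 0.01 and 0 with a required difference of at least 1, and 3 to 5 when a sample was left out (3 without control replicate 1, 2 or 3). The count of lower genes, 18, was 1 with that required difference and 17 to 19 when a sample was left out. For all genes the count of 5778 was 693 with the required difference and 4734 to 6228 when a sample was left out. The median of -0.26 was -0.21 with no lower limit, which adds *Tm7sf2* and *Abca1*, and -0.24 to -0.30 when a sample was left out. No difference among these genes that passed the test changed sign in any setting.

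No paired analysis was possible because the treated columns are not numbered like the titles, while the control columns begin with 1, 2 and 3. Values of genes with few reads are shrunken and counting error cannot be given without depth, which limits *Tm7sf2* and *Abca1* most. With 3 samples a group, a difference that missed the threshold does not show that the levels were equal.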

Other observations

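Genes that use fatty acids were counted in a further pair of lists. Of 16 tested genes of fatty acid activation and glycerolipid synthesis, 6 were higher (37.5%, against 24.8% of all genes) and 2 were lower (12.5%, against 25.3%), with a median difference of 0.13. *Acsl4*, which activates arachidonic acid and related polyunsaturated fatty acids, had rlog values of 11.37, 11.26 and 10.96 in control and 12.64, 12.69 and 12.53 in treated samples, a 2.68-fold rise (limma adjusted p = 1.99e-05). *Gpam*, the mitochondrial acyltransferase of the first step of glycerolipid synthesis, had values of 8.07, 8.01 and 7.75 in control and 9.20, 9.11 and 8.70 in treated samples, a 2.09-fold rise (adjusted p = 0.000535). *Pcyt1a*, the regulated enzyme of phosphatidylcholine synthesis, rose by 0.89, whereas *Acsl3* (-0.53) and *Agpat2* (-0.73) fell. These last 3 genes were named after their values were seen.

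Of 15 tested genes of fatty acid oxidation, 3 were higher (20%, against 24.8% of all genes) and 5 were lower (33.3%, against 25.3%), with a median of -0.05. *Cpt1a*, which admits fatty acids to mitochondria and is inhibited by malonyl-CoA, the product of the *Acaca* enzyme, had rlog values of 11.25, 11.24 and 11.28 in control and 12.49, 12.54 and 12.58 in treated samples. It was 2.43-fold higher (difference 1.28, standard error 0.045, adjusted p = 5.09e-07). Both subunits of the electron transfer flavoprotein, *Etfa* (-0.55) and *Etfb* (-0.57), and the thiolase *Acaa2* (-0.55), named after their values were seen, fell.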
